A study of Homo sapiens with 31 samples.

Results

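The HCT116 RNA dilution series comprised 10 of the 31 RNA-seq libraries of a study that mixed total RNA of colorectal cancer lines with total RNA of a normal colon line. Its members were chosen by label: 4 mixtures holding 0.1, 1, 10 and 50% HCT116 RNA in CCD841CoN RNA, with 1 library each, 3 libraries of undiluted HCT116 (100%) and 3 of undiluted CCD841CoN (0%). HCT116 is an established colon adenocarcinoma line and CCD841CoN, labelled normal, is a line from human colon. Both were listed as wild type and untreated, and all lines were grown in RPMI-1640 or DMEM with serum. The study asked, per its design text, whether the share and the profile of cancer RNA can be inferred from such mixtures. For the dilution series, the questions were how each gene followed the percentage and which genes showed at which level. The mixtures were made from RNA, not from cells, so they model no change inside a cell, and no label says whether libraries of the same line had cultures of their own.

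In a mixture of RNA, each transcript is present at the sum of what both sources bring. A transcript that only the minor source makes appears against an empty background, whereas a transcript that both make must rise above a level that is already there, and a transcript of the major source can fall by no more than the share it loses. Colorectal cancer cells carry epithelial products, such as the adhesion molecule EPCAM, keratins, claudins and desmosomal proteins, while mesenchymal cells carry fibrillar collagens, small proteoglycans and vimentin. Genes of replication and mitosis are made by every dividing cell.

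The lines could be told apart by such genes. HCT116 carried EPCAM at 784 ± 267 CPM (CPM is the count scaled to equal library totals; mean ± SD, n = 3) against 0.108 ± 0.188 CPM in CCD841CoN. COL1A1, a chain of type I collagen, stood at 7.44 ± 3.07 CPM in HCT116 and 8168 ± 1236 CPM in CCD841CoN. The normal line carried fibroblast markers at high levels and EPCAM near 0, so the mixtures contrast cell types as well as cancer with normal, and these cannot be told apart. Of the intestinal markers, CDX2 stood at 9.39, 14.7 and 14.9 CPM and HNF4A at 3.80 CPM in HCT116, whereas VIL1 and CDH17 averaged 0.101 and 0.182 CPM there.

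The mixtures held 13075811 (0.1%), 38100512 (1%), 15439822 (10%) and 14442619 (50%) counts. Undiluted HCT116 libraries held 20604908 to 33029384 counts and CCD841CoN libraries 9688765 to 24640112. Mitochondrially encoded genes took 0.301 to 0.312% of the counts in the mixtures, 0.220 to 0.525% in HCT116 and 0.275 to 0.312% in CCD841CoN. The libraries of a line were not interchangeable. Across 9423 genes, which are not independent replicates, the 0.1% mixture correlated at 0.9925 with CCD841CoN replicate 1 and at 0.9794 and 0.9785 with replicates 2 and 3 (Pearson, log2 CPM). The 50% mixture correlated at 0.733 with HCT116 replicate 3 and at 0.648 and 0.693 with replicates 1 and 2. In 42 genes with little HCT116 expression replicate 1 of CCD841CoN lay at least 2-fold from both other CCD841CoN libraries, and there the 0.1% mixture was nearer to replicate 1 in 41 genes and the 1% mixture in 40. TIMP3, an inhibitor of matrix metalloproteinases, is an example, with 104 CPM in CCD841CoN replicate 1, 464 and 444 CPM in replicates 2 and 3, and 104 and 99.1 CPM in the 0.1 and 1% mixtures.

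The share of HCT116 read from the mixtures lay close to the labelled percentages, and above them at each level, when it was taken from 523 HCT116 markers. These were genes at least 32-fold higher in HCT116 than in CCD841CoN (log2 fold change of at least 5) with at least 5 CPM in HCT116, chosen on the undiluted libraries alone. Their summed level was 166, 169 and 189.6 CPM in CCD841CoN, 215, 523, 3357 and 14601 CPM in the 0.1, 1, 10 and 50% mixtures, and 27828 to 28876 CPM in HCT116. The share was 0.143% (counting interval 0.115 to 0.172) in the 0.1% mixture, 1.24% (1.21 to 1.26) in the 1% mixture, 11.3% (11.2 to 11.4) in the 10% mixture and 51.3% (51.0 to 51.5) in the 50% mixture. These are 95% intervals and cover counting error only, since PCR copies of a molecule are not independent. The labels give shares of total RNA and the counts cover protein-coding genes, so the estimates and the labels need not be equal.

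Read from the other side, the share depended on which CCD841CoN library stood for 0%. The 696 genes that marked CCD841CoN gave 8.12, 9.38, 18.3 and 55.1% in the 4 mixtures, low to high, against the mean of its 3 libraries. Against replicate 1 alone, a setting chosen after the data had been seen, they gave -0.776, 0.598, 10.4 and 50.8%. With the 0.1% mixtures of LoVo, LS1034 and HT-29 in place of pure CCD841CoN as the 0% level, the HCT116 markers gave -0.0881, 1.01, 11.1 and 51.2%. Those mixtures hold RNA of other colorectal cancer lines. At 0.1% the marker sum did not place the HCT116 mixture above them, and the cause was not tested.

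**Figure D1:**
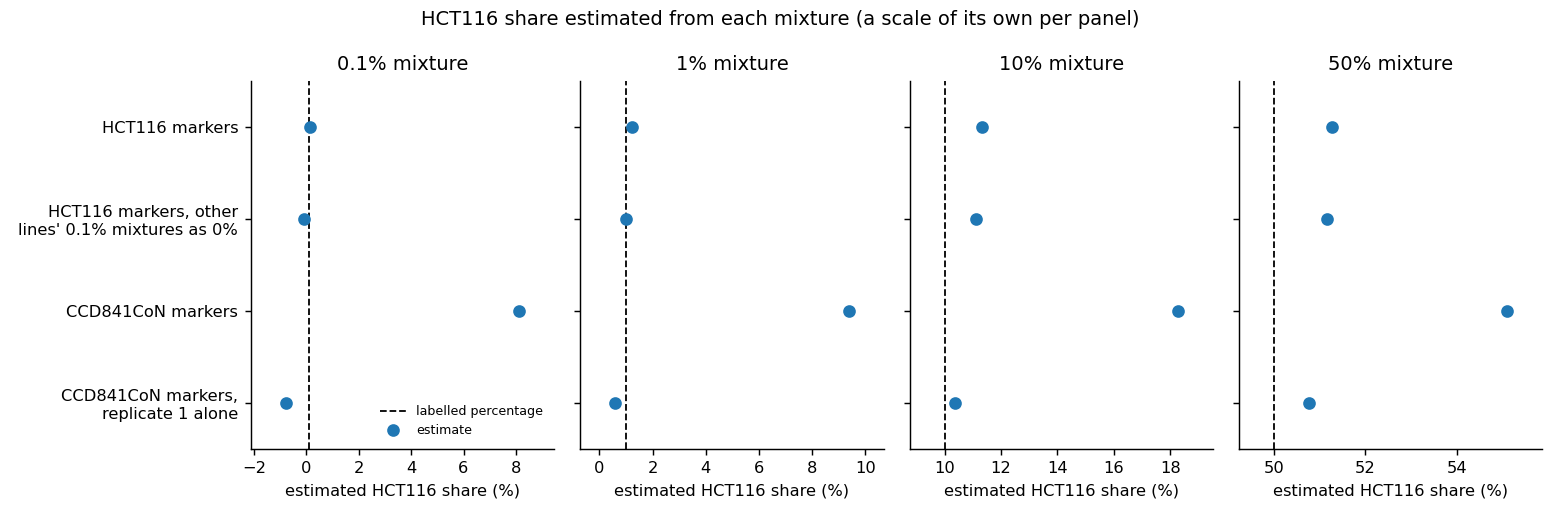
Share of HCT116 (%) estimated from the 0.1, 1, 10 and 50% mixtures, 1 panel each with its own horizontal scale; each point is 1 estimate and the dashed line is the labelled percentage. The HCT116 markers gave 0.143, 1.24, 11.3 and 51.3%, while the CCD841CoN markers gave 8.12, 9.38, 18.3 and 55.1% against all 3 CCD841CoN libraries and lay nearer to the label against replicate 1 alone.

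The number of genes that differed from CCD841CoN grew with the percentage, and up to 50% nearly all calls were of genes higher in the mixture. Each mixture was tested against the 3 CCD841CoN libraries (edgeR quasi-likelihood test over 14452 genes, called at a Benjamini-Hochberg adjusted p below 0.05). A lone mixture is assumed to vary like the triplicate libraries, and the p-values measure the spread between libraries, which may be technical. At 0.1%, 0 genes were called (0% of those tested), with a smallest adjusted p of 0.47 and an unadjusted p below 0.05 in 246 genes; DESeq2 called GTSF1 and ESRP2. At 1%, 54 genes were called (0.374%), 52 higher (0.36%) and 2 lower (0.0138%). In the 10% mixture 351 genes were higher (2.43%) and 0 lower, where 85 genes were lower at an unadjusted p below 0.05 and DESeq2 called 2 lower. At 50%, 1216 genes were called (8.41%), 1164 higher (8.05%) and 52 lower (0.36%). Undiluted HCT116 differed from CCD841CoN in 6742 genes (46.7%), 3676 higher (25.4%) and 3066 lower (21.2%), where a log2 fold change of at least 1 was also asked for. The number of lower calls at 50% depended on scaling and tool: 14 genes were lower without the composition scaling of edgeR (TMM) and 357 with DESeq2.

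**Figure D2:**
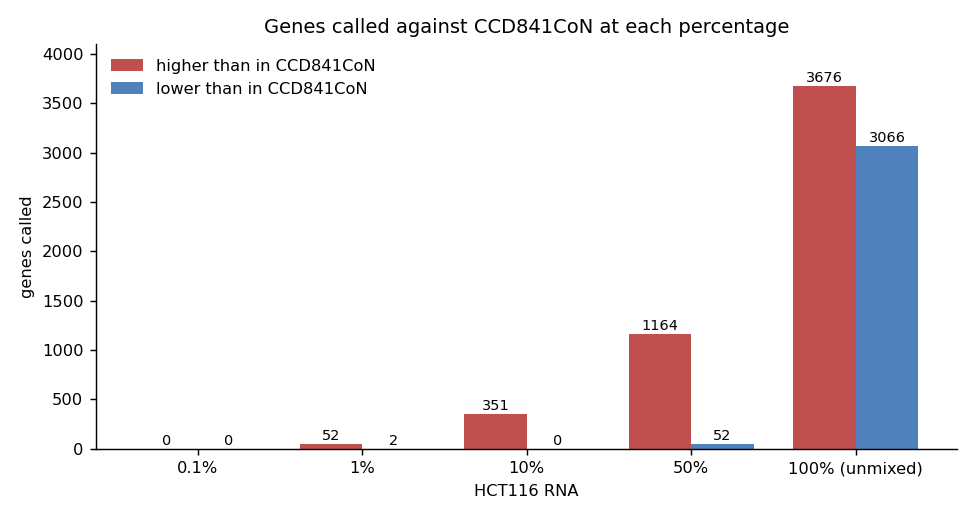
Number of genes called higher and lower than in CCD841CoN (vertical axis, from 0) in each mixture and in undiluted HCT116 (horizontal axis, % HCT116 RNA); the undiluted comparison also asked for a 2-fold change. Higher calls numbered 0, 52, 351, 1164 and 3676 from low to high, and lower calls 0, 2, 0, 52 and 3066.

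Genes that showed early had little or no background in CCD841CoN. Of the 3676 genes higher in HCT116, 51 were called from 1% on, 298 from 10% on, 815 from 50% on and 2512 in undiluted HCT116 alone. The median level in CCD841CoN was 0 CPM for the genes showing from 1%, 0.029 CPM from 10%, 0.902 CPM from 50% and 9.82 CPM for the rest. The calls were made against these same CCD841CoN libraries, so a low background favours an early call by construction. The median levels of these genes in HCT116 were 72.8, 23.2, 24.0 and 39.1 CPM in the same order. Of the 3066 genes lower in HCT116, 49 were called from 50% on and 3017 in undiluted HCT116 alone. The genes lower from 50% had a median of 8.63 CPM in HCT116 and 118.9 CPM in CCD841CoN.

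Of the 51 genes that showed from 1%, 31 had no count in CCD841CoN, and 11 belonged to a list of epithelial genes. EPCAM stood at 0.325, 0 and 0 CPM in CCD841CoN, 1.38, 6.22, 77.1 and 371 CPM in the 0.1, 1, 10 and 50% mixtures, and 1079.7, 560.4 and 711 CPM in HCT116. Each step of the series was higher than the last, and at 1% the log2 fold change over CCD841CoN was 5.25 ± 0.66 (SE; edgeR adjusted p = 0.00201). EREG, a ligand of the EGF receptor, had counts of 0, 2 and 0 in CCD841CoN and of 28, 264, 1473 and 5465 in the mixtures (adjusted p at 1% = 0.00695). TPD52, a protein of vesicle traffic, had no count in CCD841CoN and stood at 0.306, 3.02, 42.2 and 179 CPM in the mixtures and 360.2 ± 66.8 CPM in HCT116 (adjusted p at 1% = 0.000483). ST14, a membrane serine protease of epithelia, stood at 1.30, 3.62, 38.3 and 160.3 CPM in the mixtures (adjusted p at 1% = 0.00113). CA2, a carbonic anhydrase of the colon surface, stood at 0.229, 2.49, 12.1 and 46.3 CPM in the mixtures and 91.2 ± 11.9 CPM in HCT116. Its level at 50% was thus close to the mean of the end points, 0.0135 ± 0.0234 CPM in CCD841CoN being the other (adjusted p at 1% = 0.0038).

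Other genes from 1% had no count at 0.1%. NUP210, a membrane protein of the nuclear pore, had counts of 0, 129, 292 and 1150 in the mixtures. SFN, the epithelial 14-3-3 protein sigma, had counts of 0, 127, 233 and 1041. DSP, the desmosomal plaque protein desmoplakin, had counts of 0, 36, 146 and 949. No count in the 0.1% mixture allows a level of up to 0.229 CPM (3 counts). CYP24A1, which inactivates vitamin D, was present at all 4 levels with counts of 9, 83, 128 and 760. The calls at 1% leaned on the CCD841CoN libraries: 13 genes were called in all without replicate 1, 31 without replicate 2 and 50 without replicate 3. Without each CCD841CoN library in turn, 10 of the 51 kept their call: EPCAM, TPD52, ST14, NUP210, CRABP2, CA2, STK26, TGFA, MAP7 and RAB25. With the 0.1% mixtures of all 4 cancer lines in place of CCD841CoN, 12 of the 51 were called at 1%, and EPCAM, which the other lines also bring, was not (log2 fold change 0.62).

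**Figure D3:**
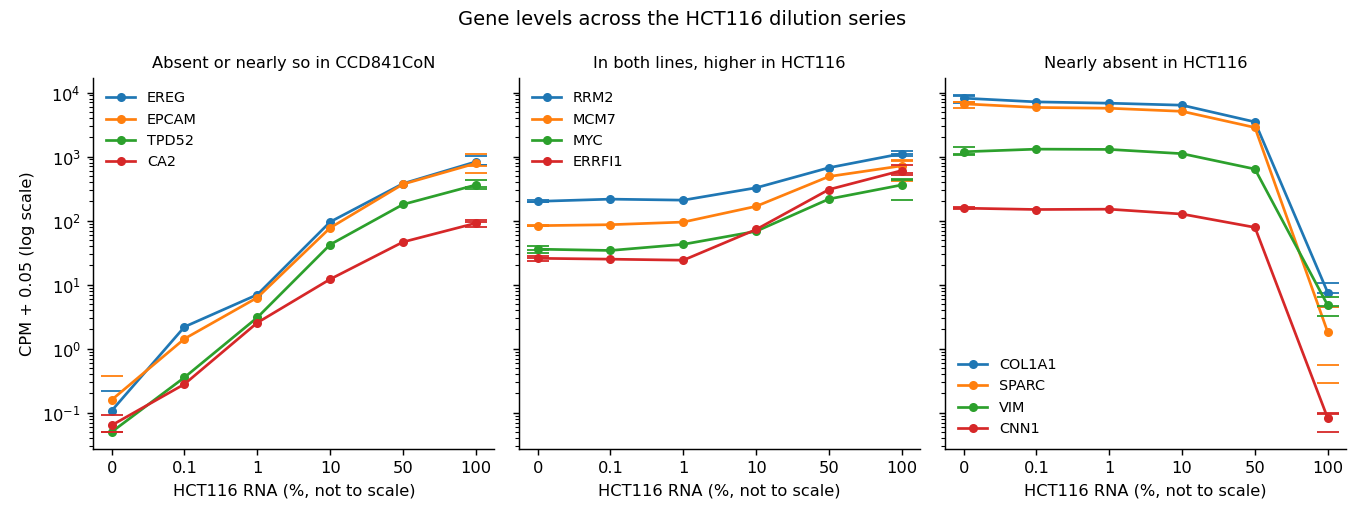
CPM plus 0.05 on a log scale against the percentage of HCT116 RNA (not to scale) for 4 genes in each of 3 kinds; points joined by lines are single mixtures and the means of the undiluted lines at 0 and 100%, and dashes are the 3 undiluted libraries. EPCAM climbed from 1.38 CPM at 0.1% to 371 CPM at 50%, RRM2 stayed at 209 to 216 CPM up to 1%, and COL1A1 kept 3475 CPM in the 50% mixture.

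Genes with no CCD841CoN count at all were read for detection by counts alone. They were picked for this in the same CCD841CoN libraries, so their background is 0 by selection. Their background in other libraries without HCT116 RNA was not tested. There were 128 such genes with at least 10 CPM in HCT116. At least 3 counts were found for 26 of them in the 0.1% mixture, 85 in the 1% mixture, 127 in the 10% mixture and 128 in the 50% mixture. By the lowest level from which each kept 3 counts, 22 showed from 0.1%, 63 from 1%, 42 from 10% and 1 from 50%. Their median levels in HCT116 were 64.0, 28.5, 18.5 and 13.2 CPM in that order. Level and detection did not run strictly together. GTSF1, a germline factor of the piRNA pathway with 343 ± 54.1 CPM in HCT116, had counts of 7, 109, 549 and 2233 in the mixtures. MAGEB2, a cancer testis antigen with 235 ± 61.1 CPM, had counts of 0, 162, 511 and 2130. PRAME, another such antigen with only 75.2 ± 18.3 CPM, had counts of 11, 43, 170 and 694.

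The 1% mixture, the deepest of the 4, was patchy. Of the 128 genes 42 had no count there, 1 had 1 or 2 counts and 75 had 10 or more. Independent counting at the share of that mixture would leave 0.137 genes without a count, against 70.2 in the 0.1% mixture, where 92 were seen. GCH1, the first enzyme of tetrahydrobiopterin synthesis, had counts of 33, 0, 79 and 256 in the mixtures and stood at 45.0 ± 13.8 CPM in HCT116 against 1.30 ± 0.516 CPM in CCD841CoN. It was called lower at 1% (edgeR adjusted p = 0.0111) although it was higher in HCT116. TBX19, a T-box transcription factor, was the other gene lower at 1%, with counts of 22, 1, 27 and 31 in the mixtures (adjusted p = 0.0279, and 0.0568 to 0.072 without 1 CCD841CoN library). Its levels in HCT116 and CCD841CoN were 2.24 ± 0.0262 and 1.81 ± 0.758 CPM. The part of library complexity in these gaps was not tested. Counting intervals are too narrow where counts come in such clumps.

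Some of these genes were particular to HCT116 among the cancer lines of the study. For 21 genes HCT116 had at least 32 times the mean level of each of LoVo, LS1034 and HT-29, and their summed level in the HCT116 mixtures was 3.75, 15.6, 130.9 and 626.7 CPM, low to high. In HCT116 it was 1118 ± 149 CPM and in CCD841CoN 1.53 ± 0.235 CPM (n = 3 each). The mixtures of the other 3 lines held 0.807 to 3.90 CPM at any percentage. At 0.1% the HCT116 mixture held 49 counts in 8 of the 21 genes, that is 3.75 CPM, against 1.19 to 2.31 CPM in the 0.1% mixtures of the others. GTSF1, MAGEB2, NLRP2 (an inflammasome family protein) and PRAME were among the highest of these genes.

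Epithelial genes were the list with the most members called at 1 and 10%. Of all genes 0, 0.36, 2.43 and 8.05% were higher in the mixtures, low to high, and at most 0.36% lower. All 40 genes of a list of epithelial junction proteins, keratins and their regulators were tested. Of these, 35 were higher in undiluted HCT116 and 2 lower (25.4 and 21.2% of all genes were). In the mixtures 0, 11, 30 and 32 were called higher from low to high, and none lower. The count at 1% was 3, 6 and 10 without CCD841CoN replicate 1, 2 and 3 in turn, and that at 10% was 28, 30 and 30. The median log2 fold change was 1.73 at 1%, 5.22 at 10% and 6.74 at 50%, over the 36, 38 and 40 members with a value. Over the 13251, 13400 and 13633 of all genes with a value it was 0.04, 0.01 and -0.10. Genes without a count in CCD841CoN enter these medians at their lower bound. KRT8, the type II keratin of simple epithelia, stood at 10.3, 11.5 and 11.9 CPM in CCD841CoN and at 7.72, 40.7, 262 and 1177 CPM in the mixtures. It was called from 10% on (log2 fold change 4.45 ± 0.54, edgeR adjusted p = 9.44e-05). KRT18, its type I partner, began from a higher background of 232 ± 28.6 CPM. It stood at 212, 214, 283 and 586 CPM in the mixtures and passed the test against CCD841CoN in undiluted HCT116 only. KRT19 stood at 30.4, 48.6, 247 and 1052 CPM in the mixtures and was called from 10% on (2.48 ± 0.52, adjusted p = 0.0114, and 0.0627 without CCD841CoN replicate 1). ESRP1, a splicing regulator of epithelia, had no count in CCD841CoN and stood at 0.0765, 2.31, 14.4 and 48.2 CPM. CLDN1, a tight junction claudin, ran against the list: it stood at 221, 232, 208 and 95.8 CPM in the mixtures and at 0.184 ± 0.185 CPM in HCT116 against 286 ± 57.9 CPM in CCD841CoN.

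**Figure D4:**
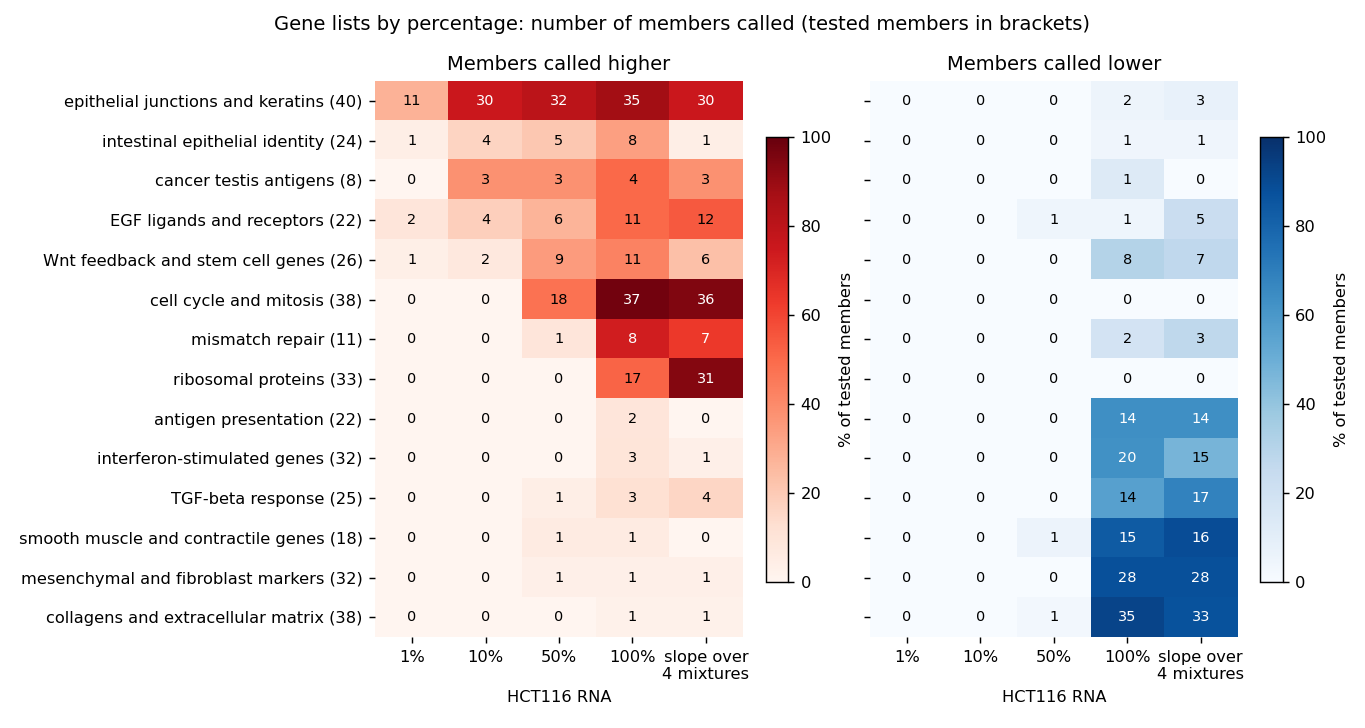
Number of list members called higher (left, red) and lower (right, blue) than in CCD841CoN in the 1, 10 and 50% mixtures and in undiluted HCT116, and with a positive or negative slope over the 4 mixtures; color is the percentage of tested members, whose number stands in brackets. Epithelial members reached 30 of 40 at 10%, cell cycle members went from 0 at 10% to 18 of 38 at 50%, and 33 of 38 matrix members had a negative slope although 1 was called at 50%.

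Of 24 genes of intestinal identity, 8 were higher in undiluted HCT116 and 1 was lower, where 25.4% of all genes were higher, and 6 were higher whichever CCD841CoN library was left out. CA2 was called at 1%, CDX2, HNF4A and USH1C as well at 10%, and HNF4G as well at 50%, where HNF4G lost its call without CCD841CoN replicate 1. CDX2, a homeobox factor that sets intestinal fate, had counts of 0, 0, 30 and 137 in the mixtures (adjusted p at 10% = 0.00537). USH1C, a scaffold of the brush border, had counts of 0, 0, 46 and 66. Cancer testis antigens, which are silent in most adult tissues, were tested for 8 genes. MAGEB2, PRAME and MAGEA3 were called from 10% on, and MAGEA6 in undiluted HCT116. At 10% MAGEB2 and PRAME lost their calls whichever CCD841CoN library was left out (edgeR adjusted p of 0.0874 to 0.13 and of 0.11 to 0.172), while MAGEA3 kept its own. All 3 kept theirs at 50%. MAGEA3 stood at 0.229, 1.52, 18.8 and 78.0 CPM in the mixtures (adjusted p at 10% = 0.000115), but it shares sequence with close MAGEA copies, so its counts are uncertain.

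Of the EGF pathway genes, ligands were called at the lowest percentage. Of 22 tested genes 11 were higher in undiluted HCT116 and 1 lower (25.4 and 21.2% of all genes were), and 2, 4 and 6 were higher in the 1, 10 and 50% mixtures (0.36, 2.43 and 8.05% of all genes). Without CCD841CoN replicate 1, EREG lost its call at 1% and TGFA kept its own. TGFA, a ligand, had no count in CCD841CoN and stood at 0.459, 1.60, 6.54 and 33.7 CPM in the mixtures (adjusted p at 1% = 0.00113). ERRFI1, a feedback inhibitor of the receptor, stood at 25.7 ± 2.56 CPM in CCD841CoN and at 24.9, 24.0, 72.6 and 306 CPM in the mixtures. It passed the test from 50% on (3.23 ± 0.80, adjusted p = 0.0174), but not when 1 CCD841CoN library was left out, whichever it was (0.0559 to 0.0675). PHLDA1, a target of the pathway present in both lines, stood at 404, 409.9, 436 and 601 CPM in the mixtures and passed no test against CCD841CoN. Wnt feedback and stem cell genes were split in undiluted HCT116, 11 of 26 higher and 8 lower (25.4 and 21.2% of all genes were). RNF43, which removes Wnt receptors, was called from 1%, SOX9, a progenitor factor, from 10%, and 9 genes at 50%. RNF43 at 1% and SOX9 at 10% lost their calls without CCD841CoN replicate 1 and without replicate 2. MYC, the growth regulator, stood at 35.7 ± 4.67 CPM in CCD841CoN, 34.1, 42.5, 68.0 and 217 CPM in the mixtures and 360.4 ± 133 CPM in HCT116 (2.26 ± 0.47 at 50%, adjusted p = 0.0043). CD44, a hyaluronan receptor also made by fibroblasts, fell over the mixtures, with 4139, 3923, 3696 and 2197 CPM.

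Genes of replication and mitosis were called at 50% but in no lower mixture. Of 38 tested, 37 were higher in undiluted HCT116 (25.4% of all genes were), and 0 were called at 0.1, 1 and 10% and 18 at 50%. Of all genes 0, 0.36, 2.43 and 8.05% were higher in the mixtures, low to high. For 38 genes, 0 calls up to 10% is close to those shares. The median log2 fold change of the 38 genes was 0.19 at 0.1%, 0.25 at 1%, 0.65 at 10% and 1.64 at 50%. None had a negative slope that passed over the mixtures. Their summed level was 2025 CPM in CCD841CoN replicate 1 and 1762 and 1755 CPM in replicates 2 and 3. It was 2073 and 2127 CPM in the 0.1 and 1% mixtures, nearest to replicate 1, so the medians there are not read as HCT116 RNA. RRM2, a subunit of ribonucleotide reductase, stood at 199.6 ± 7.04 CPM in CCD841CoN, 216, 209, 325 and 669.9 CPM in the mixtures and 1112 ± 93.4 CPM in HCT116. The 0.1 and 1% mixtures lay close to the CCD841CoN libraries, and at 50% the difference did not pass the test (1.40 ± 0.53, adjusted p = 0.132). MCM7, a subunit of the replicative helicase, stood at 86.3, 94.8, 167 and 488 CPM and passed at 50% (2.21 ± 0.57, adjusted p = 0.0208), but not when 1 CCD841CoN library was left out, whichever it was (0.0607 to 0.0673). MKI67, the proliferation antigen, stood at 16.1, 18.6, 27.9 and 85.6 CPM and passed at 50% (2.26 ± 0.57, adjusted p = 0.0185). Its CCD841CoN libraries differed among themselves, with 24.1, 7.97 and 9.70 CPM, and its call was lost without replicate 2 or 3. The number of these genes called at 50% was 29 without composition scaling, and 10, 5 and 6 without CCD841CoN replicate 1, 2 and 3 in turn.

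Mismatch repair genes took both directions. MSH3, which takes part in the recognition of small loops, fell over the mixtures with 26.8, 22.1, 21.2 and 15.5 CPM (edgeR adjusted p of the slope = 0.0202). It stood at 5.82 ± 1.84 CPM in HCT116 against 25.8 ± 2.43 CPM in CCD841CoN. Of 11 genes tested, 8 were higher and 2 lower in undiluted HCT116 (25.4 and 21.2% of all genes were). Ribosomal protein genes were higher in undiluted HCT116 in 17 of 33, in 11 with the size factors of DESeq2 and in 27 without composition scaling. None was called in any mixture, where at most 8.05% of all genes were higher, but 31 had a positive slope (17.8% of all genes did). RPL8 stood at 621, 622, 769.8 and 1347 CPM and RPS2 at 505, 531, 664 and 1222 CPM in the mixtures. Without composition scaling 13 of the 33 were called at 50%.

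Genes of the CCD841CoN side mostly fell with the dilution, but even at 50% the fall rarely passed the test against CCD841CoN. Of 38 collagen and matrix genes 35 were lower in undiluted HCT116 (21.2% of all genes were), with a median log2 fold change of -8.70, and yet 1, TIMP3, was called in a mixture, at 50%, and not without CCD841CoN replicate 2 or 3. Mesenchymal markers were lower in HCT116 in 28 of 32 and in 0 of 32 in each mixture. At 50%, 0.36% of all genes were called lower. Over genes with a value, the median log2 fold change at 50% was -1.38 in the matrix list (37 genes) and -1.33 in the mesenchymal list, against -0.10 in 13633 of all genes. Over all members tested it was -1.40 and -1.37, and without composition scaling -1.05 and -1.03. Fitted fold changes of single genes at 50% carry the same scaling and refer to all CCD841CoN libraries together. A fitted fall past 2-fold is thus not read as a fall beyond the dilution. COL1A1 had 93395, 259768, 97972 and 50192 counts in the mixtures, that is 7143, 6818, 6345 and 3475 CPM. Its libraries at 0% spread from 6758 to 9065 CPM, so that the 0.1 and 1% mixtures lay within their range and the 10% mixture below it, and at 50% the fold change was -1.58 ± 1.05 (edgeR adjusted p = 0.432). SPARC, a matricellular glycoprotein, stood at 5846, 5684, 5088 and 2844 CPM, and at 1.75 ± 2.38 CPM in HCT116. VIM, the vimentin filament, stood at 1306, 1293, 1109.9 and 638 CPM. DCN, the proteoglycan decorin, stood at 6579.7, 6576, 5814 and 3202 CPM. In HCT116 it had 0, 0.291 and 5.97 CPM, the highest in replicate 3, the library that the 50% mixture resembled most.

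A few members moved against their list. VCAN, a large proteoglycan, was the 1 matrix gene higher in HCT116, and stood at 2.14, 3.73, 8.68 and 30.6 CPM in the mixtures. S100A4, a calcium-binding protein used as a fibroblast marker, stood at 37.2, 43.1, 92.0 and 283 CPM and was called at 50% (1.84 ± 0.46, adjusted p = 0.0185, and 0.0703 without CCD841CoN replicate 1). DES, the muscle filament desmin, had counts of 2, 0, 3 and 17 in the mixtures and was called at 50% from a low level (adjusted p = 0.0391), but not without CCD841CoN replicate 1 or 3. TPM1, a tropomyosin, was the 1 contractile gene lower at 50%, with 2158, 2235, 1976 and 1117 CPM in the mixtures (-1.62 ± 0.47, adjusted p = 0.0413), but not without CCD841CoN replicate 2 or 3. Of 18 contractile genes 15 were lower in undiluted HCT116 and 1 higher (21.2 and 25.4% of all genes were).

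Most immune-related genes were lower in undiluted HCT116, and none was called in a mixture. In undiluted HCT116, 14 of 22 antigen presentation genes were lower and 2 higher, and 20 of 32 interferon-stimulated genes were lower and 3 higher, with 0 called in any mixture. Of all genes 21.2% were lower and 25.4% higher in undiluted HCT116, and at most 0.36% were lower in a mixture. Without CCD841CoN replicate 1 no antigen presentation gene and 1 interferon-stimulated gene was higher. B2M, the light chain of class I molecules, stood at 4193, 4246, 3788 and 2458 CPM in the mixtures and at 916 ± 328 CPM in HCT116 against 4826 ± 551 CPM in CCD841CoN. OAS3, an antiviral oligoadenylate synthetase, ran the other way from most of its list with 21.4, 21.3, 28.9 and 69.5 CPM. In the TGF-beta response list 14 of 25 genes were lower in undiluted HCT116 and 3 higher, and TGFBI, a secreted matrix protein named for that response, stood at 1599, 1524, 1409 and 795 CPM. TGIF1, a repressor in that pathway, was the 1 gene of the list called in a mixture, at 50%, and it lost that call whichever CCD841CoN library was left out. Of 30 p53 targets 10 were lower and 4 higher in undiluted HCT116 (21.2 and 25.4% of all genes were), with 0 called in any mixture. The higher count was 1 with the size factors of DESeq2 and 7 without composition scaling. CDKN1A encodes p21, which halts the cell cycle, and had 2093, 2083, 1926 and 1189.6 CPM. ACTB, cytoplasmic actin, is often used as a reference gene, and stood at 21391, 21131, 19797 and 13566 CPM. GAPDH, a glycolytic enzyme, stood at 3977, 3957, 4061 and 4479 CPM and passed neither the slope test nor a test against CCD841CoN. The remaining lists had few calls in the mixtures. In undiluted HCT116, 5 of 21 secretory genes were higher and 3 lower, against 25.4 and 21.2% of all genes, and 3 were higher whichever CCD841CoN library was left out. GALNT12, a mucin glycosyltransferase, was called from 10%. Its call at 10%, but not that at 50%, was lost whichever CCD841CoN library was left out. Of 12 histone genes 3 were higher and 6 lower, with a median log2 fold change of -1.06 at 50%. H4C3 was called higher at 50%, a call lost in the same way, and without replicate 1 the histones higher in undiluted HCT116 numbered 1. Of 20 housekeeping genes 6 were higher and 2 lower in undiluted HCT116. Over the mixtures 10 had a positive and 3 a negative slope (17.8 and 19.8% of all genes did). Of 13 mitochondrially encoded genes 2 were higher in undiluted HCT116. Of their slopes 2 were positive and 7 negative (17.8 and 19.8% of all genes), the negative ones numbering 2 without composition scaling. The marker lists that follow are small, and their counts lie near the 25.4% of all genes higher and 21.2% lower. Immune cell markers had 2 of 6 higher and 2 lower, endothelial markers 2 of 8 higher and 2 lower, and neural markers 2 of 6 lower. These last counts were 1 each for the higher immune and the lower neural markers whichever CCD841CoN library was left out, and 1 for the higher endothelial markers without replicate 2 or 3.

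The slope over the 4 mixtures used no undiluted library. Its SE and p-values measure the scatter of 4 single libraries about a line, not a spread between cultures or RNA preparations. They are therefore not on the scale of the tests against CCD841CoN. It was fitted as log2 expression against the fraction of HCT116 RNA, and 5432 genes passed (37.6%), 2568 with a positive slope (17.8%) and 2864 with a negative one (19.8%). Of the 3676 genes higher in undiluted HCT116, 1923 had a positive slope that passed and 0 a negative one. Of the 3066 lower genes, 2070 had a negative slope that passed and 0 a positive one. Of the 7710 genes not called between the undiluted lines, 645 passed with a positive and 794 with a negative slope. In the slope test the matrix genes came forward: 33 of 38 passed with a negative slope, as did 28 of 32 mesenchymal and 16 of 18 contractile genes. COL1A1 fell by 2.48 ± 0.05 log2 units per unit fraction (SE; edgeR adjusted p = 9.63e-07), SPARC by 2.49 ± 0.03 (1.51e-07) and VIM by 2.49 ± 0.08 (5.09e-06). Among genes of HCT116, 36 of 38 cell cycle genes and 30 of 40 epithelial genes passed with a positive slope, and in the epithelial list 3 passed with a negative one, CLDN1 and KRT7 among them. MCM7 rose by 4.33 ± 0.34 per unit fraction (adjusted p = 0.000142) and RRM2 by 2.82 ± 0.25 (0.000233). The slope leaned on the highest mixture: 1067 genes passed without the 50% library. In a mixture log2 expression is not a straight line in the fraction, so the slopes describe 0.1 to 50% only. The median slope of the matrix list was -2.44, and -2.02 without composition scaling. On log10 of the percentage 831 genes passed, 825 of them positive.

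Order over the mixtures was also counted with no model. Of the 3676 genes higher in HCT116, 1531 (41.6%) increased at each step over the 4 mixtures, against 17.5% of all genes tested. Of the 3066 lower genes, 896 (29.2%) decreased at each step, against 8.36% of all genes tested. KRT18, MYC and MCM7 were among those that increased at each step, and COL1A1, SPARC and VIM among those that decreased.

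Most genes lay close to the weighted sum of the end points, which at 0.1 and 1% is nearly the CCD841CoN level itself. For genes expected at 10 CPM or more, at the share read from the HCT116 markers, 96.8% of 8722 lay within 1.5-fold of the expected level in the 0.1% mixture, 96.7% of 8755 in the 1% mixture, 97.1% of 9030 in the 10% mixture and 94.1% of 9537 in the 50% mixture. That left 279, 288, 266 and 564 genes outside. With the labelled percentage as the share, 279 and 288 were outside at 0.1 and 1%. The closeness there was largely given in advance and says little about the HCT116 RNA. Few genes made by HCT116 alone can be expected at 10 CPM in those mixtures. Which undiluted libraries were used changed these numbers: with HCT116 replicate 3 and CCD841CoN replicate 1 as the end points 99 genes were outside at 50%, and with HCT116 replicate 1 and CCD841CoN replicate 3 there were 2711. Single pairs of libraries were tried after the data had been seen.

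**Figure D5:**
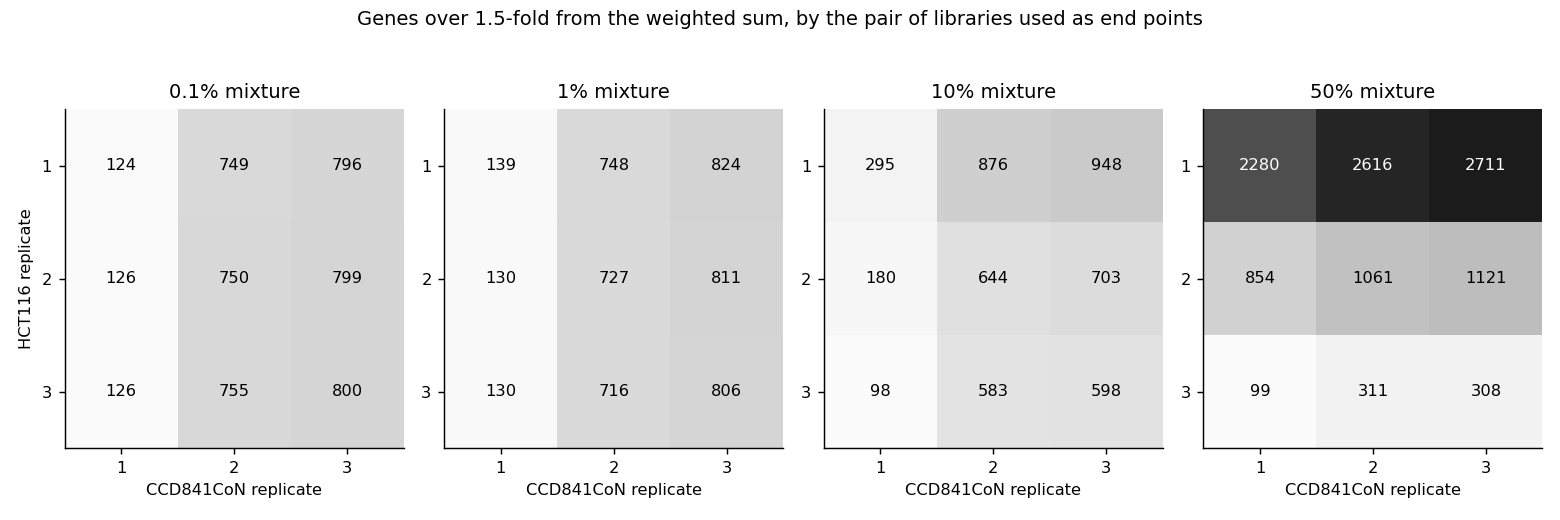
Number of genes more than 1.5-fold from the weighted sum of the end points in each mixture, for each pair of 1 HCT116 replicate (rows) and 1 CCD841CoN replicate (columns) as the end points; darker means more genes. In the 0.1 and 1% mixtures the number was 124 to 139 with CCD841CoN replicate 1 and 716 to 824 with the others, and at 50% it was lowest, 99, with HCT116 replicate 3 and CCD841CoN replicate 1.

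Some genes far from the sum at 50% differed between the undiluted libraries of a line. NPW, a neuropeptide, stood at 1.07, 2.36, 34.5 and 161 CPM in the mixtures and at 65.7, 126 and 298 CPM in HCT116. SLC14A1, a urea transporter, was the farthest below, with 12.8, 16.0, 13.2 and 4.78 CPM in the mixtures, and 16.8, 116 and 107 CPM in CCD841CoN. MMP1, an interstitial collagenase, stood at 37.0, 36.7, 26.3 and 12.9 CPM in the mixtures and at 34.4, 238 and 242 CPM in CCD841CoN. In both genes the 0.1% mixture was already near replicate 1, which carries 0% HCT116 RNA.

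The same holds for a part of the 49 genes called lower from 50%. In 8 of them CCD841CoN replicate 1 was below 50% of the mean of replicates 2 and 3, TIMP3 among them. Without replicate 1, 26 of the 49 were also called. Leaving out replicate 1 raises the reference where replicates 2 and 3 are higher, so it favours lower calls there. In all, the genes lower from 50% numbered 33 without replicate 1, 6 without replicate 2 and 8 without replicate 3. HBD, a globin chain that HCT116 lacks in these counts, stood at 58.6, 57.8, 42.5 and 26.7 CPM in the mixtures and at 58.6, 137 and 137 CPM in CCD841CoN (edgeR adjusted p at 50% = 0.0486, a call lost without replicate 2 or 3). PCSK6, a proprotein convertase, stood at 678, 645, 618 and 337 CPM in the mixtures and at 673, 908 and 912 CPM in CCD841CoN (-1.65 ± 0.35, adjusted p = 0.00527). Of the 49 genes 6 had no count in the 50% mixture. MAP10, a microtubule-associated protein, was 1 of them, with counts of 29, 82, 14 and 0 in the mixtures (adjusted p = 0.0353, a call lost whichever CCD841CoN library was left out). KLF11, MCMDC2 and TMEM132B were called lower at 50% without a call between the undiluted lines, and each lost that call without 1 or more of the CCD841CoN libraries. Of these, MCMDC2 and TMEM132B had no count in the 50% mixture.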

How the data were processed

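The authors deposited raw counts per protein-coding gene (17113 genes in 31 libraries). Per the labels, a Roche KAPA stranded kit with removal of ribosomal RNA was used, and per the submitters' processing notes STAR, featureCounts and hg19 were. Versions and settings are not given in the sources used here. No column lacked a sample. Libraries were grouped by label.

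Counts were tested with edgeR 4.0.16 in R 4.3.3 (quasi-likelihood, TMM composition scaling, filterByExpr on the 15 undiluted libraries, 14452 genes), with DESeq2 1.42.0 as the other tool. Undiluted lines were fitted together, each mixture with them (19 libraries), and the slope on the 4 mixtures alone. CPM used whole library counts in Python 3.11.15 with numpy 2.4.6, pandas 2.3.3 and scipy 1.17.1, and figures were drawn with matplotlib 3.10.9. Mean levels are arithmetic, so a fitted fold change need not equal their ratio. Levels are not divided by gene length, so they are not compared between genes.

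Members, the 22 gene lists and the tests were chosen with earlier results of these data known. Genes named are, by rule, the highest members of each list, members against their list, the highest genes absent from either line, those with the largest fold change at each level, and those farthest from the weighted sum. Some of these are not reported here, and others (among them TGFA, ST14, MKI67, PCSK6, TBX19 and genes in short counts) were chosen after their values were seen. Replicate numbers did not pair the lines: residuals of equal number correlated at -0.018, 0.0089 and -0.019.

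The tests were also run on simulated counts with 200 changed genes (dispersion 0.02). The undiluted comparison recovered 94% of 2-fold and 100% of 4-fold changes (3% of 200 calls false). The 50% mixture recovered 60 and 95% (2.52% of 159), and the slope 53 and 95% (2.63% of 152). For the slope the change is per 50 percentage points. These rates hold for that dispersion only. The wider spread of genes such as COL1A1 and RRM2 at 50% was not simulated. The rates therefore do not give the share of real changes recovered, or of false calls, in these data.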

Additional observations from a re-analysis of the deposited data

How the results depend on the processing

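The total of calls over all genes in each comparison, in both directions together, stayed within 1.5 times of that given except as follows. With DESeq2, 2 genes were called at 0.1% and 88 at 1%. With the 0.1% mixtures of all lines as the control, 14 were called at 1%, and without 1 CCD841CoN library 13 to 50 were. The slope was called in 831 genes on log10 of the percentage, in 9308 with the end points included, and in 1067 to 6366 without 1 mixture. Lower calls at 50% numbered 8 to 35 without 1 CCD841CoN library and 203 with the 0.1% mixtures as the control, against 52. Counts over the gene lists moved by over 1.5 times in 24 of 69, 19 of 65 and 17 of 65 counts without CCD841CoN replicate 1, 2 and 3, in 19 of 105 without composition scaling and in 5 of 102 with the size factors of DESeq2. The genes showing from 1% numbered 11 to 48 without 1 CCD841CoN library, and those lower from 50% 6 to 33. Asking for 10 counts, 2 of the 128 genes showed from 0.1% and 2 from 50%. Of genes expected at 50 CPM or more, 59, 69, 52 and 141 lay outside 1.5-fold of the weighted sum, low to high. Without CCD841CoN replicate 1, 689, 634, 554 and 691 genes expected at 10 CPM or more did, and over all omissions down to single libraries 124 to 800, 130 to 824, 98 to 948 and 99 to 2711. These ranges include settings chosen after the data had been seen.

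Shares moved beyond their counting intervals in the following settings. With stricter markers (256-fold, 20 CPM) they were 1.20, 10.96 and 50.2% at 1, 10 and 50%. On composition-scaled CPM they were 1.66, 13.9 and 53.4%. From CCD841CoN markers they were 8.12, 9.38, 18.3 and 55.1%, and against replicate 1 alone -0.776, 0.598, 10.4 and 50.8%. With the 0.1% mixtures of the 3 other lines as 0% they were -0.0881, 1.01 and 11.1% at 0.1, 1 and 10%. Without 1 undiluted library the shares stayed within their counting intervals at 0.1 and 1% (0.127 to 0.169 and 1.22 to 1.26%), and not in every case at 10 and 50% (11.2 to 11.4 and 50.8 to 51.8%).

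The replicate block left 6569 calls between the undiluted lines, 6455 of them shared; the numbers do not pair the lines, and mixtures carry none. The share of higher calls between the undiluted lines was 54.5%, and 64.9% without composition scaling; for the slope it was 47.3 and 63.3%, and at 50% it was 95.7%, and 77.8% with DESeq2. Leaving out the scaling moved the median log2 fold change of all genes to 0.55 between the undiluted lines, against 0.23, to 0.18 at 50%, against -0.07, and to 0.31 for the slope, against 0. These medians are over all 14452 genes tested, whereas the all-gene medians set beside the lists are over genes with a value.

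Of the 151 genes that the naming rule gives, no call between a mixture or HCT116 and CCD841CoN turned its direction in the alternatives run; the mixture calls of genes named outside the rule were examined without 1 CCD841CoN library only, and none turned there. Slopes turned without passing the test for CALR (0.015) and MT-CO2 (0.084) without composition scaling, for DKK1 (0.52) and H1-2 (0.30) with the end points included, and for SPRY2 without the 50% mixture (0.48; -2.35 to 0.48 without any 1 mixture). The causes were not tested. A single library per mixture limits each value, and at 0.1% the depth gave 3 counts to genes at 0.229 CPM.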
